A study of Mus musculus with 8 samples.

Results

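Endothelial nuclei line the blood vessels of the brain, and 729 of them were found among 48468 nuclei kept from 8 single-nucleus RNA libraries, a share of 1.50%. Barcodes entered with 500 or more unique molecular identifiers (UMIs, the counted RNA molecules), 300 or more genes and mitochondrial genes giving no more than 5% of UMIs. A nucleus was called endothelial when at least 2 of Flt1, Cldn5, Cdh5, Pecam1, Ly6c1, Abcb1a and Slco1a4 were detected with at least 3 UMIs together. It also had to hold no UMI of the mural and fibroblast genes Rgs5, Pdgfrb and Col1a2, at most 1 UMI of the neuronal genes Rbfox3, Snap25 and Syt1, and no UMI of the glial genes Mog, Aqp4 and Cx3cr1. Of 2146 nuclei that met the endothelial markers, 1417 failed an exclusion: 818 held a mural or fibroblast gene, 889 neuronal genes and 594 a glial gene, and some failed several. The nuclei were thus chosen by the measured counts of these 16 genes, whose levels are given as descriptions only.

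The libraries came from a 2-mm cube of forebrain next to the lesion, frozen, from male Swiss Webster mice aged 10 weeks. There were 4 groups of 2 libraries labelled as biological replicates: control surgery, BCAS, TBI, and BCAS with TBI (BCAS+TBI). TBI is traumatic brain injury, and BCAS, given only as an abbreviation, commonly stands for bilateral carotid artery stenosis, a narrowing of the neck arteries that lowers blood flow to the brain. The study's title names cerebral hypoperfusion as a factor that may worsen the injury. The mice carried no allele or transgene that the labels name, and all underwent a surgery. The labels used here give neither the time from surgery to dissection, the kind of control surgery, nor whether a library came from 1 mouse or a pool, so p-values measure the spread between these libraries.

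Brain endothelial cells form the blood-brain barrier. Tight junctions seal the gaps between them, so sugars, amino acids, thyroid hormone and fatty acids pass through dedicated transporters, while efflux pumps return many drugs to the blood. Wnt signalling, VEGF and angiopoietin receptors, and transcription factors of the ETS, SOX and FOX families maintain this state. Arteries, capillaries and veins carry different endothelial programmes along the vascular tree, with nutrient transport strongest in capillaries and leukocyte entry in veins.

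ETS factors bind DNA around a GGAA core, and their members Erg, Fli1, Ets1 and Elk3 were all above the remaining nuclei here (values below). The letters CAGGAAG, searched on both strands as CAGGAAG or CTTCCTG and overlapping no other motif searched, were found in 22.2% of 329 promoters of genes at least 8 times higher in endothelial nuclei. Over all 32851 promoters of the same length, 300 bases, the share was 13.3%. This difference was not tested, base composition was not matched, and shares for other motifs are not given. The enriched genes come from these same counts. Promoters in RefSeq matched 250 of the 355 enriched genes. RefSeq promoters matched 5 of the rule's 7 endothelial markers, and none of their 6 promoters held these letters, a statement about this window alone. Below are stretches upstream of a start site for 3 of the named enriched genes with a match: Lef1 at chr3:131156240-131156293 (plus strand), Ptprg at chr14:11553498-11553552 (plus strand) and Heg1 at chr16:33684336-33684422 (plus strand), all GRCm38.p6. They show where the letters, in capitals, lie relative to the gene; a match is not a bound site.
Lef1: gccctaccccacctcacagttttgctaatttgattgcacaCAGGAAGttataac
Ptprg: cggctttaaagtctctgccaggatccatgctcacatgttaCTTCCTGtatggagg
Heg1: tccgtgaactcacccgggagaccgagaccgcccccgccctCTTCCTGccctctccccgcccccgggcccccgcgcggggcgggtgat
The capitals end 8 bases before the start for Lef1, 9 for Ptprg and 84 for Heg1. Lef1 has several start sites in RefSeq, and 1 of them, the furthest downstream, carries the match. Lef1 encodes a Wnt transcription factor, Ptprg a receptor tyrosine phosphatase, and Heg1 a membrane protein that stabilises endothelial junctions.

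The libraries fell into 2 sets by sequencing depth, and these sets cut across the groups. Set 1 held control 1, BCAS 1, TBI 1 and BCAS+TBI 2, with 28118725 to 33363564 UMIs each. Set 2 held control 2, BCAS 2, TBI 2 and BCAS+TBI 1, with 42651388 to 56135192 UMIs. The labels name no batch, so the sets are groups of libraries seen in the data. The endothelial nuclei themselves had medians of 723 to 862 UMIs in set 1 and 936 to 1085 in set 2, and the 8 libraries contributed 39153 to 186397 endothelial UMIs each, 771865 in all. Doublets were not called; 12 endothelial nuclei had over 3 times their library's median. Pairs of libraries shared 4 to 15 barcodes, and no endothelial barcode occurred in more than 1 library.

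Many endothelial genes differed between the sets: 284 of 2747 genes tested passed (10.3%), by edgeR with the groups in the fit, 73 of them higher in set 2. Bsg, the transmembrane chaperone of lactate transporters, was lower in set 2 by 1.78 ± 0.19 on the log2 scale (SE; adjusted p = 0.000154). H2-D1, an MHC class I heavy chain, was lower by 1.99 ± 0.22 (adjusted p = 0.000154), and Slc2a1, the glucose transporter of the barrier, by 0.76 ± 0.21 (adjusted p = 0.0279). Of 69 ribosomal protein genes tested, 59 differed, all lower in set 2. Each set holds 1 library of every group, so each group comparison is also given with the library set as a block.

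The label was checked on genes that the rule did not use. Tek, the angiopoietin receptor, stood at 685 UMIs per 1000000 UMIs (CPM) in endothelial nuclei and 9.63 CPM in the remaining nuclei, Eng, a TGF-beta co-receptor, at 574 and 7.45 CPM, and Vwf, the clotting factor stored in endothelial granules, at 685 and 3.73 CPM. Erg stood at 386 and 5.05 CPM, and Sox17, an arterial and endothelial transcription factor, at 215 and 2.61 CPM. All of these were found in every library above the remaining nuclei. Median nuclei held 12 UMIs of the rule's markers, from 4 of the 7 genes, and Flt1, a VEGF receptor, was seen in 93.4% of nuclei while Cdh5, the adhesion molecule of endothelial junctions, was seen in 25%. At the rule's limit, 27 nuclei held exactly 3 marker UMIs and 34 missed it with 2 marker UMIs from 2 genes, meeting all else; Flt1 stood at 694 CPM in those just inside and 255 CPM in those just outside, and Slco1a4, an organic anion transporter, at 364 and 109 CPM.

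Markers of other cell types were not wholly absent. The 8 mural markers summed to 66.1 CPM against 76.6 CPM in the remaining nuclei, the 5 microglia markers to 192 against 127 CPM, and the 5 fibroblast markers to 110 against 37.4 CPM. Astrocyte markers summed to 867 against 1686 CPM and excitatory neuron markers to 1236 against 12260 CPM. Of the 9 exclusion genes, 6 were at 0 by construction. Haemoglobin transcripts, from red blood cells, summed to between 91.2 CPM in control 2 and 1415 CPM in BCAS 2.

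In all, 355 genes were at least 8 times higher in endothelial than in the remaining nuclei, after adding 5 CPM to each level, and 340 of them were higher in 8 of 8 libraries. Since the same counts chose the nuclei, these ratios describe them and carry no test. Mecom, a zinc-finger transcription factor, stood at 2831 CPM against 25.3 CPM, and its 8 libraries ranged from 2302 CPM in TBI 1 to 3434 CPM in control 2. Slco1c1, which carries thyroxine across the barrier, stood at 2331 against 63.1 CPM and ranged from 2017 CPM in BCAS+TBI 2 to 3250 CPM in BCAS+TBI 1. Besides these, the leading genes were the receptor phosphatases Ptprg, Ptprm and Ptprb, Bsg, the growth factor receptor Igf1r, the transcription factors Ebf1 and Lef1, the adhesion receptor Adgrl4, the taurine transporter Slc6a6, and Heg1, together with Sgms1, Gpcpd1, Utrn, Rundc3b, Ccdc141, Atp10a, Arhgap31 and St3gal6.

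Transporters were the broadest group: all 22 on the list were above the remaining nuclei and 18 passed 8 times, with a summed level of 12100 against 832 CPM. The sum ranged only from 10880 CPM in BCAS+TBI 2 to 13340 CPM in BCAS+TBI 1. Slc2a1 stood at 876 CPM against 22.9 CPM, with 1532 CPM in BCAS 1 and 606 CPM in BCAS 2 as its extremes. The efflux pump Abcg2 was steadier, from 817 to 1088 CPM, against 22.2 CPM in the remaining nuclei. Slc7a5, the large neutral amino acid carrier, ranged from 328 to 505 CPM against 13.2 CPM, and Slc22a8, an organic anion exporter, from 224 to 487 CPM against 7.45 CPM. Mfsd2a, the carrier of lysophospholipid fatty acids that restrains vesicle traffic, stood at 114 against 5.90 CPM. Tfrc, the transferrin receptor for iron uptake, stood at 586 against 65.2 CPM, and Insr, the insulin receptor, at 538 against 119 CPM.

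Among 14 junction genes, 13 were above the remaining nuclei and 6 passed 8 times. Ocln, a tight junction membrane protein, stood at 343 against 7.85 CPM and Esam, an endothelial adhesion molecule, at 292 against 5.45 CPM. The scaffold Tjp1 is also expressed outside vessels and stood at 1701 against 404 CPM. Cldn12 was the exception, with 10.4 against 20.4 CPM. Of the 16 receptor and ligand genes, 13 passed 8 times: Kdr, the main VEGF receptor, stood at 231 against 4.58 CPM, and Ptprb, which opposes Tek signalling, at 1998 against 23.1 CPM. Angpt2, the angiopoietin of remodelling vessels, was on this list and stood at 23.3 CPM in both the endothelial and the remaining nuclei.

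Wnt and Notch genes were above the remaining nuclei in 18 of 18 cases. Lef1 stood at 1329 against 62.8 CPM, the Wnt receptor Fzd4 at 93.3 against 3.38 CPM, and Apcdd1, a Wnt target that dampens the pathway, at 202 against 7.85 CPM. Jag1, a Notch ligand, stood at 159 against 5.29 CPM. Of 20 endothelial transcription factors, all were above and 13 passed 8 times. The ETS factors Fli1 and Ets1 stood at 631 and 473 CPM, against 11.5 and 12.5 CPM, and Elk3 at 387 against 20.1 CPM. Epas1, the hypoxia-inducible factor of endothelium, stood at 872 against 23.4 CPM. Of the basement membrane list, Fn1 (fibronectin) stood at 552 against 12.3 CPM and Lama4, a laminin chain, at 246 against 19.4 CPM.

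**Figure D1:**
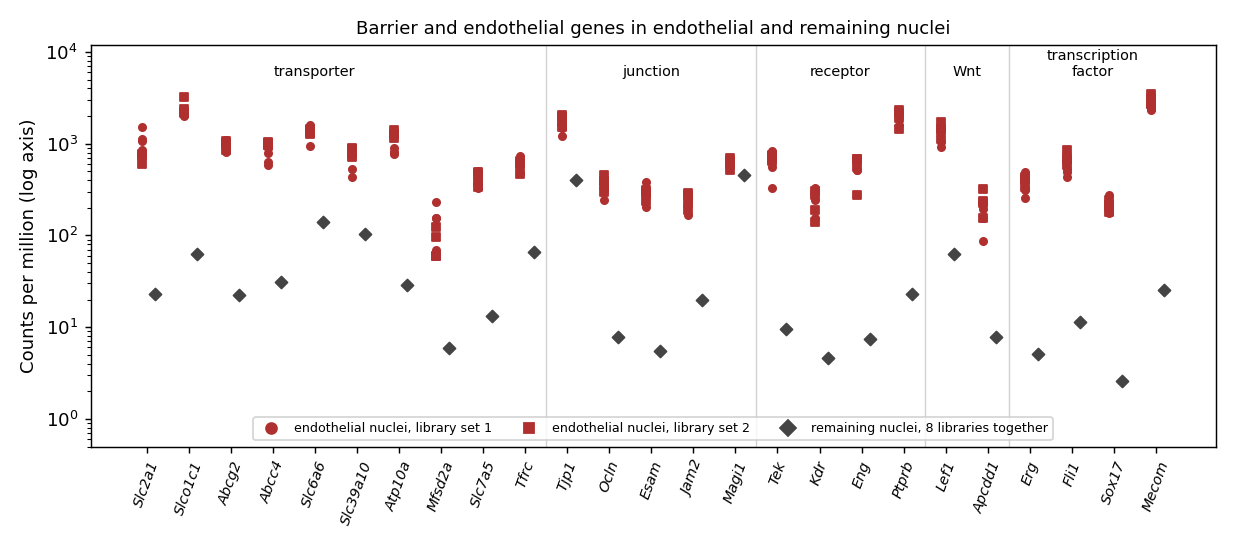
CPM (log axis) of 25 genes by role in endothelial nuclei of each library (red; circles set 1, squares set 2) and in the remaining nuclei of the 8 libraries together (grey diamonds). Endothelial values lie above the grey value for each gene shown, by the smallest margin for Magi1, a junction scaffold.

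Single members of the activation, hypoxia, immediate early and angiogenic lists were not detected, although these lists summed to more in endothelial than in the remaining nuclei: 1499 against 54.8 CPM for activation and leukocyte adhesion, 596 against 284 CPM for hypoxia, 408 against 158 CPM for immediate early genes and 369 against 85.6 CPM for the angiogenic and tip cell list. The proliferation genes Mki67 and Top2a had 0 UMIs among 771865, and so did the immediate early genes Fos and Fosb, the chemokine Ccl2, and the hypoxia genes Hk2 and Car9; a count of 0 allows up to 3 UMIs, or 3.89 CPM, for counting error only. Plvap, a component of leaky, fenestrated endothelium, stood at 6.48 against 13.8 CPM in the remaining nuclei, and Esm1, a tip cell gene, at 1.30 against 1.66 CPM. The leukocyte adhesion genes Sele and Selp, at 3 and 6 UMIs, stood at 3.89 and 7.77 CPM against 0.026 and 0.062 CPM, and Icam1 at 37.6 against 1.30 CPM. Lcn2, an acute-phase gene, stood at 23.1 and 0 CPM in controls, 0 CPM in both BCAS libraries, 87.4 and 8.53 CPM with TBI, and 10.3 and 172 CPM with BCAS+TBI. It rested on 23 UMIs, and the control and TBI libraries overlapped.

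Vessel zones were visible within the nuclei. Counting nuclei with at least 2 genes of a list, 122 nuclei (16.7%) carried arterial genes, 354 (48.6%) capillary genes and 222 (30.5%) venous genes, while 163 carried none of these. Arterial and venous genes met in 64 nuclei, capillary and venous in 61, and arterial and capillary in 11. Nuclei with arterial or venous genes had medians of 1070 and 1220 UMIs, above the 929 UMIs of capillary nuclei and the 930 UMIs of all.

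Genes outside the zone lists also differed between nuclei that matched a single zone. Slc7a5 stood at 745 CPM in capillary nuclei, 149 CPM in venous nuclei and 0 UMIs in arterial nuclei, which allows up to 55.5 CPM. Slc7a1, a carrier of arginine and lysine, followed the same order with 800, 205 and 111 CPM, and Slc39a10, a zinc importer, with 1128, 488 and 241 CPM. Not all transporters did. Slc2a1 stood at 889 CPM in capillary, 1195 CPM in venous and 925 CPM in arterial nuclei. In the same order, Slc3a2 stood at 214, 322 and 130 CPM, Insr at 535, 731 and 241 CPM, and Slc6a6 at 1453, 1282 and 1813 CPM. Ets1 stood at 771 CPM in capillary, 212 CPM in venous and 130 CPM in arterial nuclei. Erg shared this order, at 442.5, 361.8 and 240.6 CPM. The other ETS factors named did not, with Fli1 at 501.5, 998.8 and 481.1 CPM and Elk3 at 365.1, 471.9 and 462.6 CPM. In the opposite sense, Sox17 stood at 444 CPM in arterial, 181 CPM in capillary and 94.4 CPM in venous nuclei, and Jag2, a Notch ligand, at 389, 133 and 31.5 CPM. Nrp2, a co-receptor for VEGF and semaphorins found on veins and lymphatics, stood at 842 CPM in venous nuclei against 62.7 CPM in capillary and 111 CPM in arterial nuclei. These levels come from 51 arterial, 286 capillary and 101 venous nuclei and are descriptions, since the classes were made from the same counts.

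The endothelial share of nuclei was lowest with BCAS. It was 1.80% and 2.46% in the control libraries, 0.782% and 1.10% with BCAS, 1.82% and 1.48% with TBI, and 1.50% and 1.11% with BCAS+TBI, replicates 1 and 2 in that order. The numbers of nuclei behind these shares were 103 and 146, 43 and 75, 98 and 113, and 90 and 61. Over the 4 libraries with BCAS the share was 1.12% ± 0.29 (SD, n = 4) and over the 4 without it 1.89% ± 0.41 (SD, n = 4), 0.771 percentage points apart in favour of those without BCAS. The ranges overlapped only through 1.50% in BCAS+TBI 1 and 1.48% in TBI 2. An exact two-sided permutation test gave p = 0.0571, adjusted over both surgeries 0.114, where 70 assignments allow no p below 0.0286, so the difference did not pass. Within set 1 the share with BCAS minus the share without was -0.866 percentage points and within set 2 it was -0.677. Before the exclusions, marker-positive nuclei made up 3.80% ± 0.79 (SD, n = 4) with BCAS and 5.02% ± 0.97 (SD, n = 4) without. Their ranges overlapped (exact permutation p = 0.114, adjusted 0.229). The exclusions left 43 of 169 and 75 of 332 of them with BCAS, and 103 of 250 and 146 of 378 in controls. With TBI the exclusions left 98 of 272 and 113 of 325, and with BCAS+TBI 90 of 237 and 61 of 183. The part of the exclusions was not tested.

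**Figure D2:**
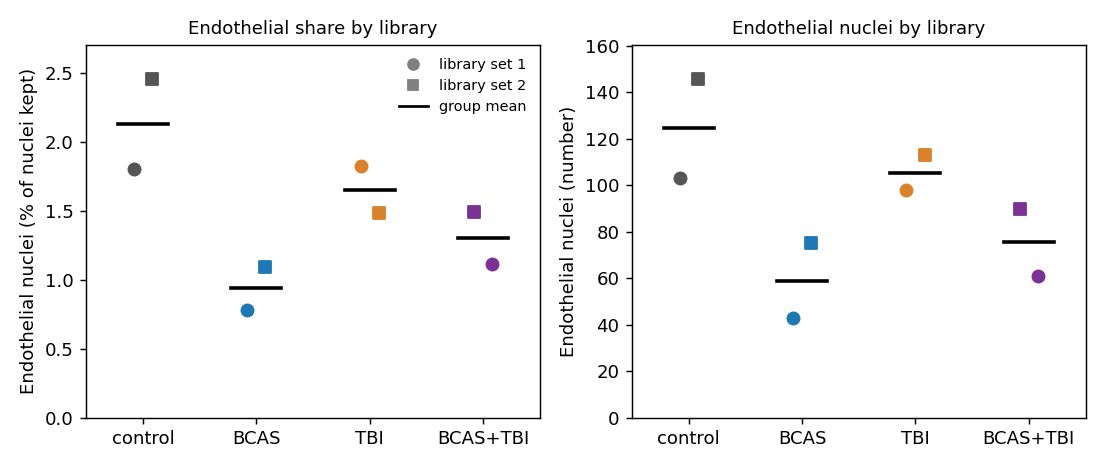
Endothelial share (left, % of nuclei kept) and number (right) in each library, by group; circles are set 1, squares set 2, and bars group means. The BCAS libraries lie at 0.782% and 1.10%, below the control libraries at 1.80% and 2.46%.

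TBI showed no such separation: the share was 1.48% ± 0.29 (SD, n = 4) with it and 1.54% ± 0.75 (SD, n = 4) without, with p = 1 in the exact permutation test. The direction differed between sets, 0.177 percentage points in set 1 and -0.290 in set 2. Mural nuclei, meant to hold the pericytes and smooth muscle cells of the same vessels, numbered 311. They held at least 2 of Rgs5, Pdgfrb, Abcc9, Atp13a5, Kcnj8, Notch3 and Vtn with at least 3 UMIs together. They held no Flt1, Cldn5, Cdh5 or Pecam1 and met the same neuronal and glial limits. Their astrocyte markers summed to 4775 CPM against 1686 CPM in the remaining nuclei, and fibroblast markers to 1119 against 37.4 CPM. RNA of other cell types was therefore present in the class. The mural share was 0.669% ± 0.143 (SD, n = 4) with BCAS and 0.620% ± 0.020 (SD, n = 4) without (exact permutation p = 0.60). The limit on mitochondrial UMIs and the other filters removed 475 to 1394 barcodes a library in set 1 and 255 to 425 in set 2. Without the mitochondrial limit the shares were 1.54% ± 0.41 (SD, n = 4) with BCAS and 2.18% ± 0.47 (SD, n = 4) without it (exact permutation p = 0.0857). Their ranges then overlapped more widely, 1.145% to 2.107% and 1.511% to 2.522%. In set 1 the limit left 103 of 133 endothelial nuclei in control 1, 43 of 87 in BCAS 1, 98 of 157 in TBI 1 and 61 of 144 in BCAS+TBI 2. In set 2 it left 146 of 159 in control 2, 75 of 83 in BCAS 2, 113 of 119 in TBI 2 and 90 of 96 in BCAS+TBI 1. A share does not tell fewer endothelial cells from fewer nuclei released from them by the extraction.

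Gene levels were compared between groups on counts summed per library, over 2747 genes that passed the filter on low counts. The edgeR quasi-likelihood test with Benjamini-Hochberg adjustment called 0 genes (0%) when control was compared with TBI, with BCAS or with the combined surgery, when BCAS+TBI was compared with TBI, for either surgery averaged over the other, and for their interaction. DESeq2 also called 0 in each of these 7 comparisons. At an unadjusted p under 0.05, edgeR counted 34 genes (1.24%) for TBI and 57 (2.07%) for BCAS, each against the control libraries, and 34 (1.24%) for the combination against them. It counted 36 (1.31%) for the combination against TBI, 48 (1.75%) for the interaction, 47 (1.71%) for TBI averaged and 42 (1.53%) for BCAS averaged. In simulated counts for TBI averaged over BCAS, 4-fold changes were recovered in 88% of cases and 2-fold changes in 0%. For BCAS+TBI against TBI, 4-fold changes were recovered in 44% of cases and 2-fold changes in 0%, and in the interaction 4-fold changes were recovered in 1% of cases. In this simulation and without the set block, changes of 2-fold were therefore not detectable in the first 2 of these comparisons. Nor were most changes of 4-fold in the interaction. With the block, 4-fold changes were recovered in 78.5% of cases for TBI averaged and 31% for BCAS+TBI against TBI. For changes of 2-fold these shares were 4.5% and 0%. The simulated counts held no difference between library sets, and the comparisons against control were not simulated.

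**Figure D3:**
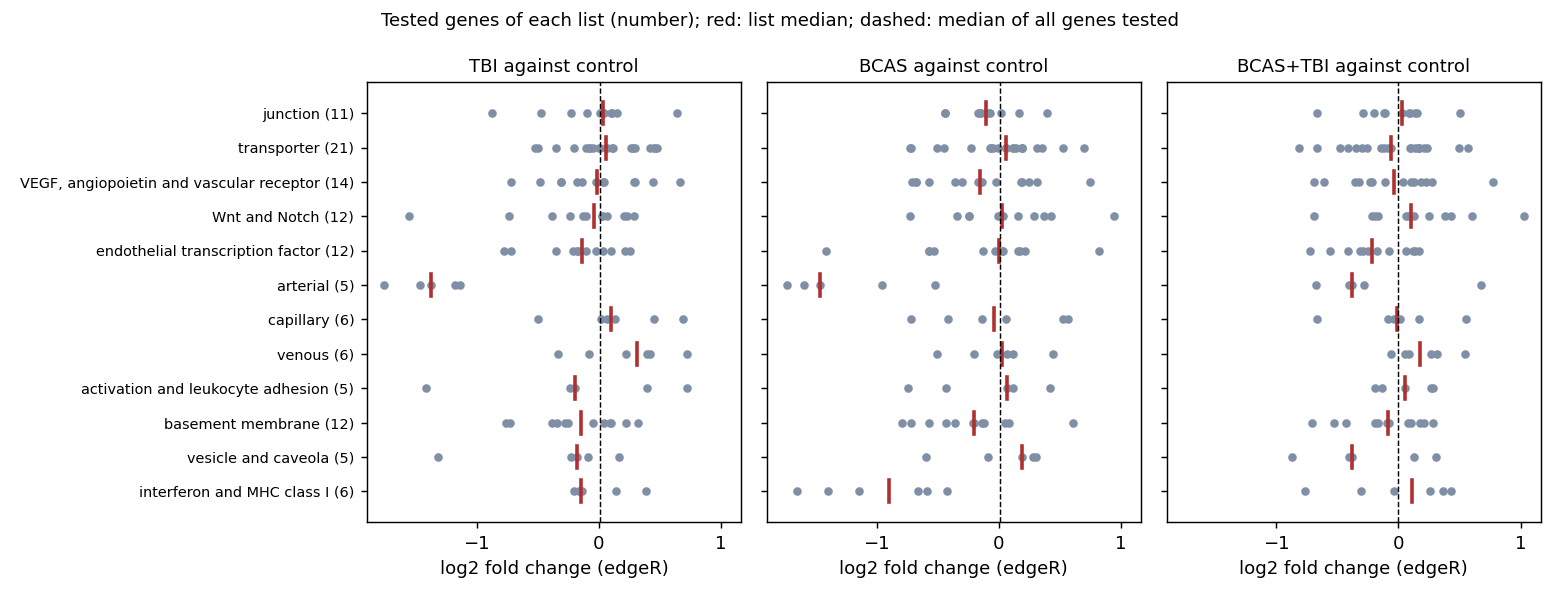
Log2 fold changes (edgeR, x axis) of the tested genes of 12 lists (rows, number tested in brackets) for TBI, BCAS and BCAS+TBI against the same control libraries; red bars are list medians and the dashed line the median of all genes. Arterial genes lie left of the line in the first 2 panels and none of the points passed the adjusted threshold.

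Barrier genes lay close to the median of all genes. Of 21 transporters tested in TBI against control, 13 had higher and 8 lower values, with a median log2 fold change of 0.06 beside 0.01 over all genes, and 0 were called. In BCAS against control the transporter median was 0.06, in BCAS+TBI against control -0.06. For 11 junction genes these medians were 0.04, -0.10 and 0.03, each with 0 called. Slc2a1 differed by 0.12 ± 0.47 (log2, SE) in TBI against control and 0.19 ± 0.48 in BCAS against control, Tjp1 by 0.10 ± 0.31 and -0.09 ± 0.32, and Ocln by -0.10 ± 0.34 and 0.17 ± 0.35. Cav1, the coat protein of caveolae, differed by -0.18 ± 0.42 and 0.31 ± 0.43.

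The arterial genes tested lay below the median of all genes in TBI and in BCAS against control. The 10 genes summed to 2673 and 1534 CPM in the control libraries, 1839 and 535 CPM with BCAS, 855 and 674 CPM with TBI, and 1435 and 1741 CPM with BCAS+TBI. Both TBI libraries were below both control libraries, and both BCAS+TBI libraries were above both TBI libraries. Of the 10 genes, 5 passed the filter on low counts: Bmx, Mgp, Vegfc, Gkn3 and Sema3g. In TBI against control all 5 of these had lower values, with a median log2 fold change of -1.38 beside 0.01 over all genes, and in 4 of the 5 the libraries did not overlap, a pattern that 16.5% of all tested genes showed in this direction. In BCAS against control the 5 also had lower values, with a median of -1.46 beside 0.01 over all genes. In BCAS+TBI against control 4 of the 5 had lower values, with a median of -0.38 beside 0.00. None passed the adjusted threshold.

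**Figure D4:**
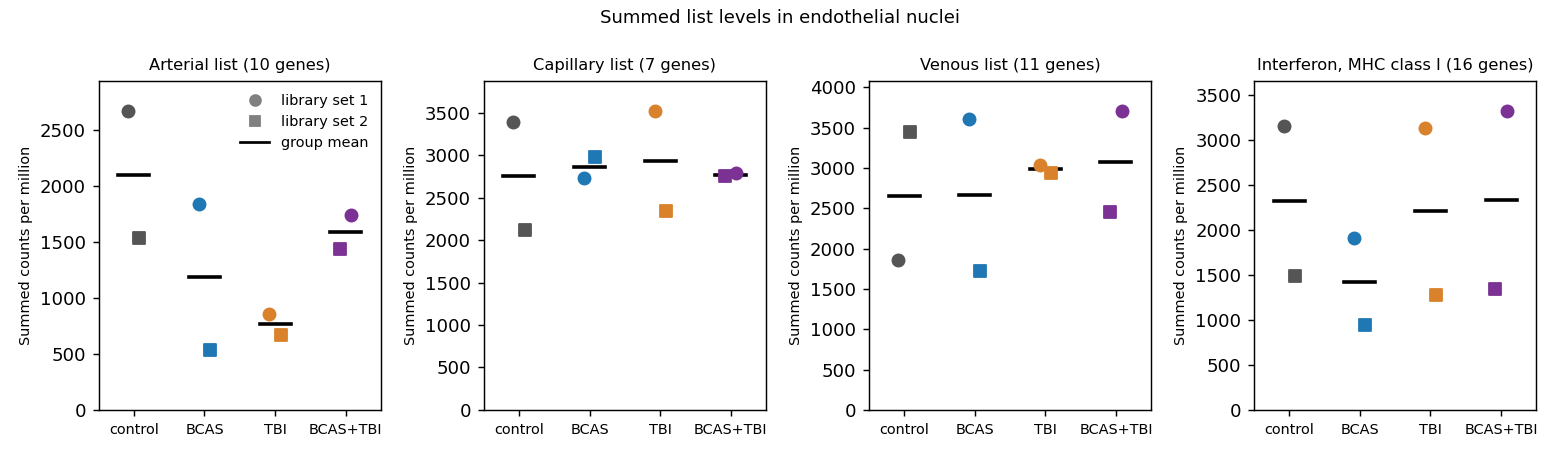
Summed CPM of the arterial, capillary, venous and interferon with MHC class I lists in each library, by group (circles set 1, squares set 2, bars group means). The TBI libraries have 855 and 674 CPM of arterial genes against 2673 and 1534 CPM in controls, and the last panel separates by library set.

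Bmx, a tyrosine kinase of arterial endothelium, stood at 394 and 258 CPM in the control libraries, 179 and 59.4 CPM with BCAS, 77.7 and 145 CPM with TBI, and 267 and 259 CPM with BCAS+TBI. The control libraries exceeded every BCAS and TBI library. The log2 difference was -1.47 ± 0.51 for TBI against control and -1.60 ± 0.57 for BCAS against control (edgeR, adjusted p = 1.00 for both), and the interaction was 2.78 ± 0.78 (adjusted p = 1.00). With the library set as a block the interaction was 2.77 ± 0.67 (adjusted p = 0.382). Bmx UMIs were spread over 3 to 20 nuclei a library, with at most 7 in any nucleus.

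Mgp, a matrix protein that binds bone morphogenetic proteins, stood at 1481 and 655 CPM in controls, 1098 and 95.1 CPM with BCAS, 418 and 188 CPM with TBI, and 246 and 1069 CPM with BCAS+TBI. It differed between sets by -1.94 ± 0.30 (log2, set 2 minus set 1; adjusted p = 0.000853), and within each set the TBI library was the lower of TBI and control. For TBI against control the difference was -1.76 ± 1.00, and -1.82 ± 0.40 with the set block (edgeR, adjusted p = 1.00 and 0.558). In control 1 a single nucleus held 63 of the 128 Mgp UMIs. Mural nuclei held 210 CPM of Mgp, and the endothelial nuclei held 46.3 and 42.9 CPM of mural markers in the control libraries and 107 and 59.7 CPM in the TBI libraries; their part in the result was not tested.

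Vegfc, a VEGF ligand made by arterial endothelium, stood at 255 and 322 CPM in controls and 136 and 76.8 CPM with TBI, a log2 difference of -1.38 ± 0.49 (edgeR, adjusted p = 1.00). Jag1, from the Notch list, stood at 197 and 268 CPM in controls and 38.9 and 111 CPM with TBI, -1.56 ± 0.54 (adjusted p = 1.00), and at 164 and 121 CPM with BCAS+TBI. Neither overlapped between TBI and control. At an unadjusted p under 0.05, Bmx and Vegfc were the arterial genes among the 1.24% of all genes that passed this in TBI against control. The comparisons of TBI, BCAS and BCAS+TBI share the control libraries, so a high control library lowers all 3 at once.

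BCAS+TBI against TBI uses no control library, but the same TBI libraries as TBI against control. Low TBI libraries alone would lower the latter and raise the former. In BCAS+TBI against TBI the 5 tested arterial genes all had higher values, with a median log2 fold change of 1.08 beside -0.01 over all genes. In 3 of 5 the libraries did not overlap, beside 11.9% of all genes in this direction, and 0 were called. The interaction, which uses the same control and TBI libraries, had a median of 2.23 over these genes with 0 called. The share of nuclei with at least 2 arterial genes was 21.4% and 23.3% in controls, 18.6% and 8% with BCAS, 11.2% and 10.6% with TBI, and 22.2% and 14.8% with BCAS+TBI. These rest on 6 to 34 nuclei a library.

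Capillary and venous genes showed no such spread between groups. The capillary list summed to 2755 ± 899 CPM in controls, 2858 ± 177 CPM with BCAS, 2935 ± 834 CPM with TBI and 2775 ± 24.3 CPM with BCAS+TBI (SD, n = 2 each). The venous list summed to 2645 ± 1122, 2662 ± 1328, 2991 ± 68.8 and 3078 ± 888 CPM in the same order. The venous median log2 fold change for TBI against control was 0.31 over 6 genes, with 0 called and a group difference well inside the spread of the control libraries, 1852 and 3439 CPM. Il1r1, the interleukin-1 receptor of venous endothelium, differed by 0.39 ± 0.58, and Vcam1, which holds leukocytes to the vessel wall, by 0.72 ± 0.74; in TBI 2 a single nucleus held 25 of 42 Vcam1 UMIs.

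MHC class I and interferon genes followed the library set. The 16 genes summed to 1916 to 3327 CPM in the set 1 libraries and 939 to 1491 CPM in the set 2 libraries, without overlap. Of 6 tested, 5 differed between sets, all lower in set 2: B2m, the MHC light chain, by 1.77 ± 0.29 (log2, edgeR, adjusted p = 0.0012), Ifitm3, H2-K1, H2-D1 and Ly6a. In BCAS against control all 6 had lower values, with a median log2 fold change of -0.90 beside 0.01 over all genes, and 0 were called. H2-D1 stood at 891 and 290 CPM in controls, 383 and 107 CPM with BCAS, 835 and 179 CPM with TBI, and 308 and 1069 CPM with BCAS+TBI. Within each set the BCAS library was the lowest of the 4. Its difference in BCAS against control was -1.40 ± 1.02, and -1.33 ± 0.34 with the set block (edgeR, adjusted p = 0.999 and 0.406).

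With the library set as a block, 1 gene was called in BCAS against control (0.0364% of those tested): Luzp2, abundant in astrocytes and oligodendrocyte precursors, by 3.74 ± 0.53 (log2, SE; edgeR, adjusted p = 0.0108). Without the block the difference was 3.77 ± 0.55 and the adjusted p 0.16. Luzp2 stood at 11.6 and 32.2 CPM in controls, 306 and 380 CPM with BCAS, 126 and 68.2 CPM with TBI, and 102 and 121 CPM with BCAS+TBI. In BCAS 1 all 12 UMIs came from 1 nucleus, and in BCAS 2 a single nucleus held 24 of 32. With the block, leaving out control 2 or BCAS 2 ended the call (adjusted p = 0.241 and 0.915), and without the nuclei of very high UMI counts Luzp2 was not among the 2621 genes tested and 0 genes were called. The remaining nuclei held 339 to 449 CPM of Luzp2 in every library.

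**Figure D5:**
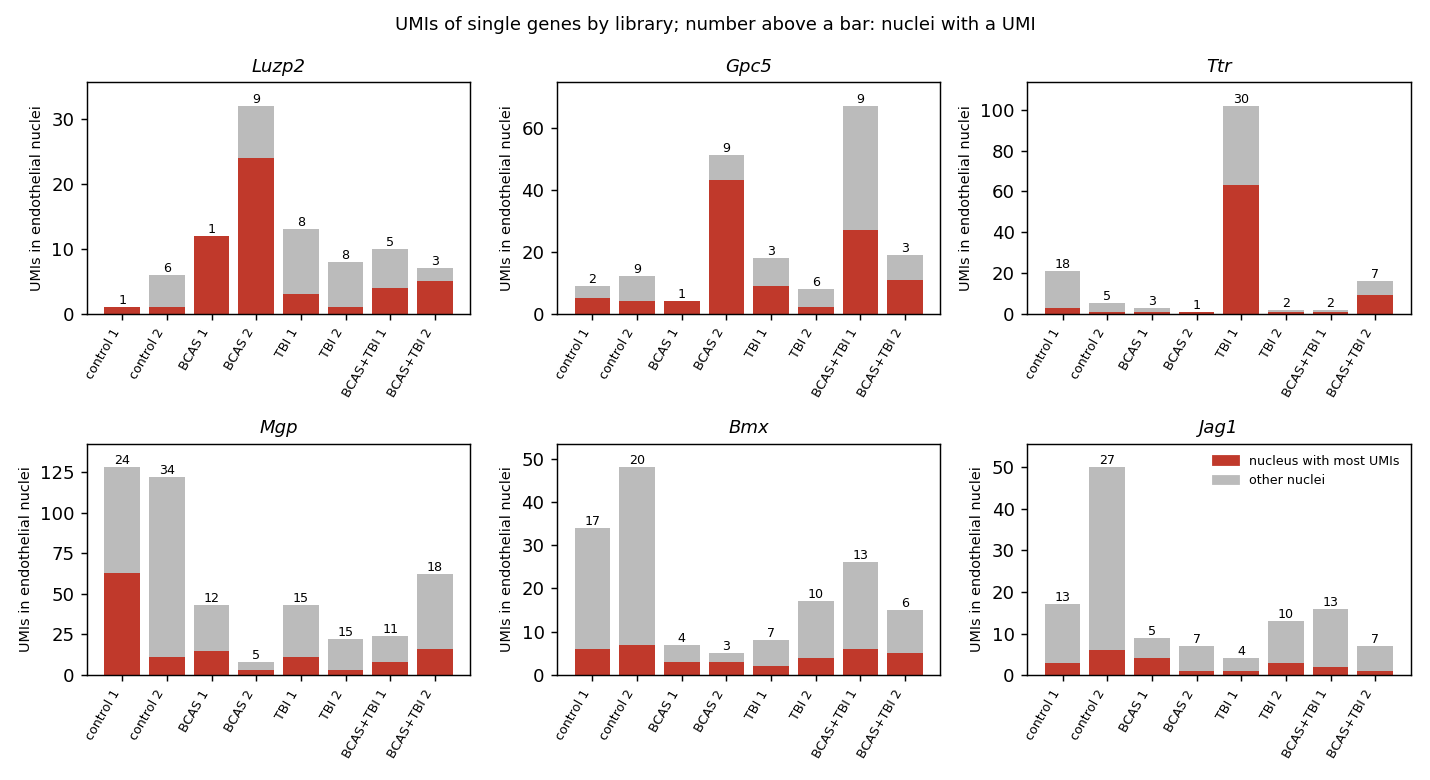
UMIs of 6 genes in the endothelial nuclei of each library; red is the nucleus with the most UMIs, grey all others, and the number above a bar is the nuclei with at least 1 UMI. The tallest bars of Luzp2 and Ttr are mostly 1 nucleus, and in that of Gpc5 1 nucleus holds 27 of 67 UMIs. The tallest bars of Bmx and Jag1, in control 2, are spread over 20 and 27 nuclei. In BCAS 2 a single nucleus holds 3 of 5 Bmx UMIs.

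Gpc5, a heparan sulphate proteoglycan of astrocytes, stood at 104 and 64.4 CPM in controls, 102 and 606 CPM with BCAS, 175 and 68.2 CPM with TBI, and 687 and 328 CPM with BCAS+TBI. Its difference was 2.64 ± 0.75 in BCAS+TBI against control and 2.11 ± 0.53 for BCAS averaged over TBI (edgeR, adjusted p = 1.00 for both). A single nucleus held 43 of 51 UMIs in BCAS 2 and 27 of 67 in BCAS+TBI 1. Astrocyte markers as a list of 5 summed to 440 and 617 CPM in controls, 843 and 1284 CPM with BCAS, 971 and 537 CPM with TBI, and 1661 and 862 CPM with BCAS+TBI, while the astrocyte gene in the rule, Aqp4, was at 0. The part of astrocyte RNA in these differences was not tested.

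The adhesion molecules Cntn1 and Nrcam, widely expressed in neurons and glia, were the other leading genes. Cntn1 stood at 23.1 and 53.6 CPM in controls and between 121 and 226 CPM in the 6 other libraries. Its differences were 2.21 ± 0.48 for TBI, 2.13 ± 0.51 for BCAS and 1.98 ± 0.50 for BCAS+TBI against control (edgeR, adjusted p = 1.00 for each). Nrcam stood at 23.1 and 37.6 CPM in controls and between 86.2 and 250 CPM in the others, and differed by 2.67 ± 0.53 in BCAS against control (adjusted p = 0.817). The remaining nuclei held 537 to 701 CPM of Cntn1, and excitatory neuron markers in the endothelial nuclei summed to 868 and 1003 CPM in controls, 536 and 2235 CPM with BCAS, 690 and 2183 CPM with TBI, and 1220 and 638 CPM with BCAS+TBI; their part in the result was not tested.

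In BCAS+TBI against TBI the smallest p-values belonged to genes well spread over the nuclei. Fut8, the core fucosyltransferase, stood at 622 and 554 CPM with TBI and 308 and 207 CPM with BCAS+TBI, a difference of -1.23 ± 0.36. Ldb2, a cofactor of LIM-domain transcription factors, stood at 126 and 205 CPM with TBI and 441 and 517 CPM with BCAS+TBI, 1.48 ± 0.46. Stard9, a kinesin, differed by 1.35 ± 0.43 here and by -1.47 ± 0.41 in TBI against control. None passed the adjusted threshold (edgeR, adjusted p = 0.999 for Fut8, Ldb2 and Stard9 in this comparison). Ldb2 did not overlap between these groups, a pattern that 11.9% of all tested genes showed in this direction. Control and BCAS libraries spanned 382 to 606 CPM for Fut8 and 220 to 562 CPM for Ldb2.

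Among the averages and the interaction, Bmp6, an endothelial BMP ligand that signals iron status, stood at 139 and 96.6 CPM in controls, 0 and 11.9 CPM with BCAS, 330 and 85.3 CPM with TBI, and 133 and 207 CPM with BCAS+TBI. TBI averaged over BCAS differed by 2.56 ± 0.69 (edgeR, adjusted p = 1.00), and a single nucleus held 25 of the 34 UMIs in TBI 1, 8 of 13 in BCAS+TBI 1 and 9 of 12 in BCAS+TBI 2. Vcl, the actin linker vinculin, stood at 185 and 225 CPM in controls, 51.1 and 71.3 CPM with BCAS, 126 and 128 CPM with TBI, and 246 and 190 CPM with BCAS+TBI. Its interaction was 2.40 ± 0.55 (adjusted p = 1.00).

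With the set block, other genes were among the leading ones without passing the threshold. Ptgds, a prostaglandin synthase of meningeal and glial cells, differed by -1.44 ± 0.29 for BCAS averaged over TBI (edgeR, adjusted p = 0.155), and a single nucleus held 60 of its 116 UMIs in control 2. Slc7a11, the cystine transporter, differed by 3.21 ± 0.78 for TBI averaged over BCAS (adjusted p = 1.00), with 44 of its 49 UMIs in BCAS+TBI 1 in a single nucleus. Lrp1b and Lrrtm4, both neuronal, had interactions of -2.27 ± 0.49 and -2.26 ± 0.51 (adjusted p = 0.382 for both). Atp8a1, a phospholipid flippase, differed by -1.03 ± 0.30 in BCAS+TBI against TBI (adjusted p = 1.00).

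Some lists rested on single nuclei. Choroid plexus markers summed to 1699 CPM in TBI 1 and at most 293 CPM elsewhere; in TBI 1 a single nucleus held 63 of 102 UMIs of Ttr, the thyroxine carrier of choroid plexus, and 39 of 67 of Htr2c. Oligodendrocyte precursor markers summed to 420 CPM in BCAS+TBI 1 and at most 102 CPM elsewhere, with 23 of 27 UMIs of Lhfpl3 in a single nucleus. Fibroblast markers were at 0 in both BCAS libraries and at 71.8 to 282 CPM in the others. The part of these nuclei in the group comparisons was not tested.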

How the data were processed

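The deposited files hold UMI counts per gene and barcode, which the authors produced using Cell Ranger (version 7.0.0, per the file headers); the submitters' processing notes name Seurat and the build GRCm38 (mm10). Group comes from the labels. The members and gene lists were chosen with earlier results of these data known. Counts of the endothelial nuclei were summed per library (39153 to 186397 UMIs) and tested with edgeR 4.0.16 (TMM, filterByExpr at minimum count 10, then the quasi-likelihood test, all 4 groups in 1 fit), Benjamini-Hochberg adjusted over 2747 genes at 0.05; R was 4.3.3. DESeq2 1.42.0 was an alternative. The fit was tested on simulated data. CPM are UMIs per 1000000 endothelial UMIs of a library. Standard errors are those of the fit. Shares were compared by exact permutation. Alternatives were the library set block, the replicate block, count filters, leaving out libraries, a stricter rule, thinning to 500 UMIs and no mitochondrial limit; the set block with a left-out library or lower minimum, the ratio to mural nuclei and marker-positive nuclei were added after seeing the data. Named genes were up to 20 a comparison past the threshold with no overlap of CPM (not required for the interaction), or the 3 with the smallest p where none passed, without predicted, mitochondrial and rule genes; list genes, and the 20 with the highest CPM among enriched genes, were also open to naming. Deviations from the group mean correlated at -0.433 to 0.413 between libraries of the same replicate number. Between libraries of a set they correlated at 0.332 to 0.433. With 2 libraries a group the deviations mirror each other, and the replicate numbers follow the sets except in BCAS+TBI. The negative values were those of same-numbered pairs with BCAS+TBI, so this difference rests on the numbering of that group alone. No barcode was left out beyond the filters above. Some genes that met the naming rule are not reported here.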

Additional observations from a re-analysis of the deposited data

How the results depend on the processing

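With 2 libraries a group and 39153 to 186397 UMIs each, simulated 4-fold changes were recovered in 88% of cases for TBI averaged, 44% for the combination against TBI and 1% for the interaction. With no filter on low counts, calls against control were 1 for TBI, 2 for BCAS and 3 for the combination; they were 4 for the combination against TBI, 1 for TBI averaged and 3 for BCAS averaged. The library set block gave 1 gene for BCAS against control, also with a minimum count of 5, but 0 without high-UMI nuclei (smallest adjusted p 0.462) or among genes at least as high as in the remaining nuclei (0.644), 2 sets of tested genes that leave out Luzp2. With this block and each library left out in turn, calls against control ranged from 0 to 5 for TBI (highest without TBI 2), 0 to 9 for BCAS (without BCAS 1) and 0 to 5 for the combination (without BCAS+TBI 2). They ranged from 0 to 4 for the combination against TBI (without TBI 2), 0 to 5 for the interaction (without BCAS 1), 0 to 2 for TBI averaged (without TBI 2) and 0 to 6 for BCAS averaged (without BCAS+TBI 2). The cause was not tested. The replicate block gave 0 genes in each comparison, and the share difference for BCAS then had p = 0.0556 by exact permutation. The labels do not say that same-numbered libraries pair. The BCAS share difference kept its sign in the settings tried but was smaller in nuclei with at least 1000 UMIs (-0.379 percentage points, exact permutation p = 0.143) and under the stricter rule (-0.477, p = 0.114), and the library set block gave p = 0.111. It was -0.908 to -0.582 leaving out each library, -0.805 thinned to 500 UMIs (exact permutation p = 0.0286, adjusted 0.0571), and a log2 difference of -0.853 per mural nucleus (exact permutation p = 0.0286, adjusted 0.0571). The thinning also thinned the exclusion genes, so the thinned class is not the same nuclei at equal depth. It held 900 nuclei against 729, and 126 against 75 in BCAS 2. The TBI share difference ranged from -0.308 to 0.252 leaving out each library and turned positive per nucleus with few neuron UMIs (0.849), without the mitochondrial limit (0.122), without control 1 (0.0324), without control 2 (0.252) and without BCAS+TBI 2 (0.0656). Of 773 alternative values of 29 results, each a named gene in 1 comparison, 740 kept direction and side of the threshold, 30 passed it and 3 reversed: Lrrtm4, TBI against control, without TBI 2 (-0.020, up to 2.37 without control 2), and Slc7a11, TBI averaged over BCAS, without BCAS+TBI 1 (-0.78, and -0.70 with the block; 5.02 without control 2).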
